A study of Mus musculus with 159 samples.

Results

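The 9 genes described here, Mbp, Mag, Mog, Mobp, Cnp, Cldn11, Mal, Cryab and Ugt8a, are expressed in oligodendrocytes and most of them build myelin. They were chosen by symbol, and 16 of the 13983 probes in the table of processed array values measured them, among 9704 genes with a symbol. RNA came from prefrontal cortex (PFC, here the frontmost cortex of each side after the olfactory bulbs were removed) and liver of female C57BL/6J mice, aged 2.5 months by the labels (the study's methods give an older starting age for the Chronic and CI mice than for the DID and LPS mice), and the RNA of each sample was hybridised to an Illumina MouseRef-8 bead array. In 3 sets the treated mice drank 20% ethanol and the controls drank water. Chronic was continuous choice between 2 bottles, CI (chronic intermittent) was the same choice every other day, and DID (drinking in the dark) was a short daily access. In the LPS set the treated mice received 2 intraperitoneal injections of lipopolysaccharide, a bacterial cell wall component, at 1 mg/kg, and tissue was taken a week after the last one. Its controls are labelled as water-treated, whereas the study's methods name saline. Each PFC group held 10 mice, except the Chronic controls with 9, which gave 79 PFC arrays. DID mice were killed in the dark phase and the other sets in the light phase, and the median signal over all probes differed between sets (8.87 to 9.23), so levels are compared only within a set.

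Oligodendrocytes wrap axons in many turns of their own membrane, and this sheath speeds conduction and feeds the axon. Frontal cortex is mostly grey matter, so its myelin RNA comes from oligodendrocytes scattered through the layers and from the white matter that lies under the cortex. In RNA from a piece of tissue, a smaller number of oligodendrocytes and less RNA in each of them cannot be told apart. The members have distinct places in the sheath. Mbp (myelin basic protein) and Mobp are small basic proteins that hold the inner faces of the membrane together. Mag is an adhesion protein of the layer next to the axon, and Mog lies on the outermost surface. Cnp, an enzyme of the cytoplasmic channels, keeps the layers from closing completely, and Cldn11 forms the tight junctions of the sheath. Mal is a membrane protein that sorts cargo to myelin, Ugt8a is the transferase that makes galactosylceramide, the main myelin glycolipid, and Cryab is a small heat shock protein abundant in oligodendrocytes but also made by other cells.

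Promoter sequence was looked at because the members varied together between mice, as described further on, and 7 of the 9 genes had an entry in the RefSeq promoter table (GRCm38.p6). The 250 bases before each start were searched on both strands for ACAAAG and ACAATG, cores bound by SOX factors, for CTGGNAC, which includes the motif of the myelin regulatory factor MYRF, and for the E-box CAGCTG. No match in these windows overlapped one of another motif. Mag has 3 starts in the table, and its outermost one is shown. ACAAAG was found for 3 of the 7 genes, against 16.5% of all 32851 promoter windows of this length, and CTGGNAC also for 3 of the 7, against 16.1%. ACAATG (10.7% of all windows) and CAGCTG (13% of all windows) were found for none of the 7. The windows of Mobp, Mag and Cnp are shown because they held ACAAAG, 6 times in Mobp and 1 time each in Mag and Cnp. Capitals mark ACAAAG (or its reverse CTTTGT) and CTGGNAC (or its reverse GTNCCAG), and each window is written 5′ to 3′ along its gene.
Mobp, chr9:120149492-120149741, plus strand: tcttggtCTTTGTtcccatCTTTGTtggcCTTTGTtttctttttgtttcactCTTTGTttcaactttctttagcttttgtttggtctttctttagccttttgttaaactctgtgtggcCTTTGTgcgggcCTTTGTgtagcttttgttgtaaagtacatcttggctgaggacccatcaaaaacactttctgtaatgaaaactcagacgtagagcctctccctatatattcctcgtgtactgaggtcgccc
Mag, chr7:30914923-30915172, minus strand: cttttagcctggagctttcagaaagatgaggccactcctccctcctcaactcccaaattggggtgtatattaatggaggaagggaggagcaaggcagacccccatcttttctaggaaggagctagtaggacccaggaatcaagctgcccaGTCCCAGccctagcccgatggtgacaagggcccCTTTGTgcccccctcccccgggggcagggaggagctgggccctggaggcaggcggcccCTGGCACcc
Cnp, chr11:100574689-100574938, plus strand: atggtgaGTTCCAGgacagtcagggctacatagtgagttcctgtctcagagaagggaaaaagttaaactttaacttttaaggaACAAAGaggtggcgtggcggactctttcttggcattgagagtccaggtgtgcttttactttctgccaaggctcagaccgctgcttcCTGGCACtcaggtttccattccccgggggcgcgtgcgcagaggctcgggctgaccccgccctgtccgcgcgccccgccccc
A match describes these letters only and says nothing on whether a factor binds there.

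The genes are scattered over the genome. On the RefSeq annotation of GRCm38.p6 Mbp lies on chromosome 18, Mag on 7, Mog on 17, Mobp and Cryab on 9, Cnp on 11, Cldn11 and Ugt8a on 3 and Mal on 2. All 16 probes gave values in every PFC set. Values are log2 signals after the authors' variance stabilisation and quantile normalisation, and 1 unit is about a doubling of normalised signal. The number of probes with values was 12125 in Chronic, 11269 in CI, 11473 in DID and 11508 in LPS, the authors having left blank 0.51% to 0.614% of the values in a set. Of the members, Cldn11 was blank in CI treated mouse 6, Cryab in Chronic control 6 and 1 of the Cnp probes in Chronic control 2, and the fits leave those values out. The brightest probe stood for each gene. In liver, an organ without oligodendrocytes, 13 of the 16 probes, covering 7 genes, were listed without values. The 3 others, both Cnp probes and Cryab, had group means of 7.98 to 8.90, and the brightest liver array was below the dimmest PFC array of the same set for each of these probes. The study's methods do not say whether the 2 tissues were normalised together, so this comparison of levels is only a description.

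Among the CI controls, 2 mice did not resemble the rest. Controls 5 and 6 stood above all the other 18 CI arrays in 15 of the 16 probes, whereas 18.7% of all probes did so and 18.4% lay below all others. For a probe blank in 1 of the 2 mice, these shares use the other mouse alone. Mobp read 11.98 and 12.02 in controls 5 and 6 against 9.89 to 10.59 in the other 18 mice. Mag read 13.87 and 13.80 against 11.73 to 12.56. These intervals do not touch, and the same gap was seen for Mog, with 11.09 and 11.01 in the pair and at most 9.93 elsewhere. The pair exceeded the mean of the other 8 controls by 0.76 (Mbp, 1.70-fold), 1.01 (Cnp, 2.01-fold), 1.17 (Cldn11, 2.24-fold), 1.23 (Ugt8a, 2.35-fold), 1.29 (Mal, 2.45-fold), 1.41 (Cryab, 2.67-fold), 1.56 (Mog, 2.95-fold), 1.73 (Mag, 3.31-fold) and 1.78 (Mobp, 3.44-fold). These 2 mice were picked by their values, so the differences are descriptions with no test. The exception among the probes was the dim Mbp probe ILMN_3011353, at 8.97 in both mice against a mean of 9.07 in the other controls.

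**Figure D1:**
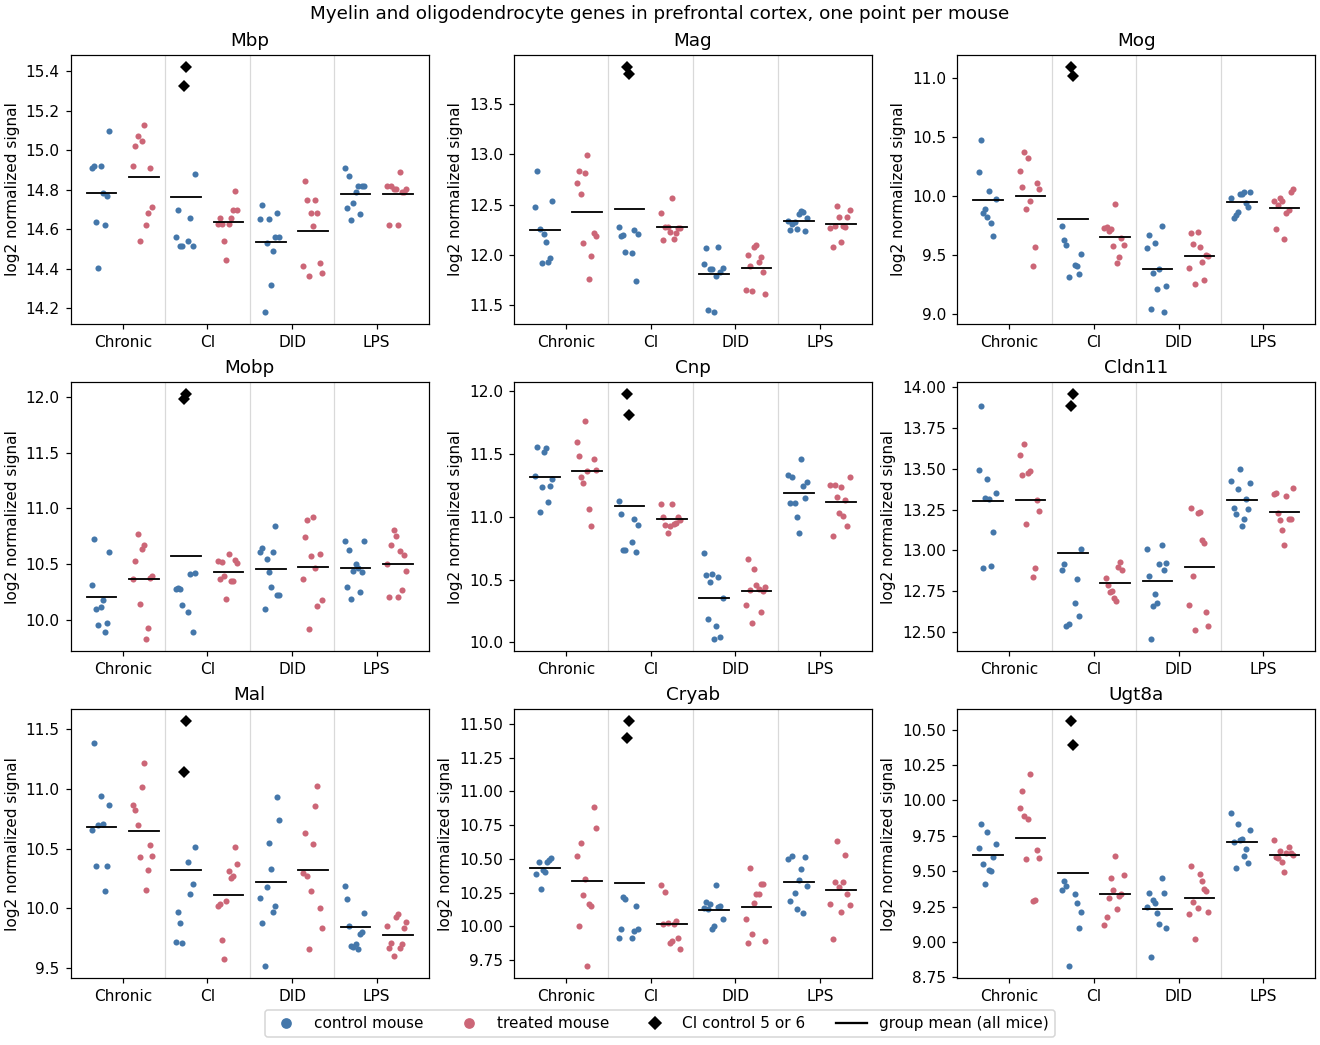
Log2 normalised signal (vertical axis) of each member in PFC, 1 panel per gene and 1 point per mouse, with controls left and treated mice right within each set; lines are means of all mice of a group. Black diamonds are CI controls 5 and 6, which lie above every other CI mouse in each panel, while elsewhere the groups of a set overlap.

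Genes of other cell types also set these 2 mice apart. Of 26 measured enzymes and other genes of mature oligodendrocytes, 24 were above all other CI arrays in both mice and 1 was below (Tppp, 10.81 against 11.32 in the other controls), and of 16 other myelin proteins 12 were above and 0 below. Thalamic neuron genes were above in 9 of 10 cases, with Slc17a6, the glutamate transporter of thalamic and other subcortical neurons, at 13.21 against 9.83 (10.4-fold) and Prkcd at 10.95 against 8.53. Tcf7l2, among those above, is also in the list of oligodendrocyte transcription factors. Transthyretin (Ttr), which the choroid plexus makes in quantity, averaged 14.80 against 9.03, and all 5 genes of meninges and fibroblasts were above. Astrocyte genes were above in 9 of 17 cases and below in 2, and endothelial genes were above in 5 of 9 cases and below in 0. In contrast 7 of 10 cortical neuron genes and 8 of 14 general neuronal genes were below all other arrays. Striatal neuron genes were below in 3 of 8 cases and above in 0, with a list median of -0.91 against the other controls. Olfactory bulb genes were below in 3 of 4 cases and above in 1, Calb2, which is also in the thalamic list. Of the same 14 general neuronal genes 2 were above, Nefm (11.96 against 10.46) and Nefh (11.13 against 9.05). Slc17a7, the glutamate transporter of cortical neurons, was at 9.37 against 12.56, and Nrgn at 9.53 against 12.55. Of the microglial genes 0 of 14 were above and 3 below, and of the oligodendrocyte precursor genes 1 of 6 was above and 2 below, with Pdgfra, the receptor that defines these precursors, at 9.59 against 9.57. The 2 libraries therefore go against the markers of their labelled tissue, and the part of each cell type in their high myelin signal was not tested. Results of the CI set and of all PFC arrays are given with and without them.

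**Figure D2:**
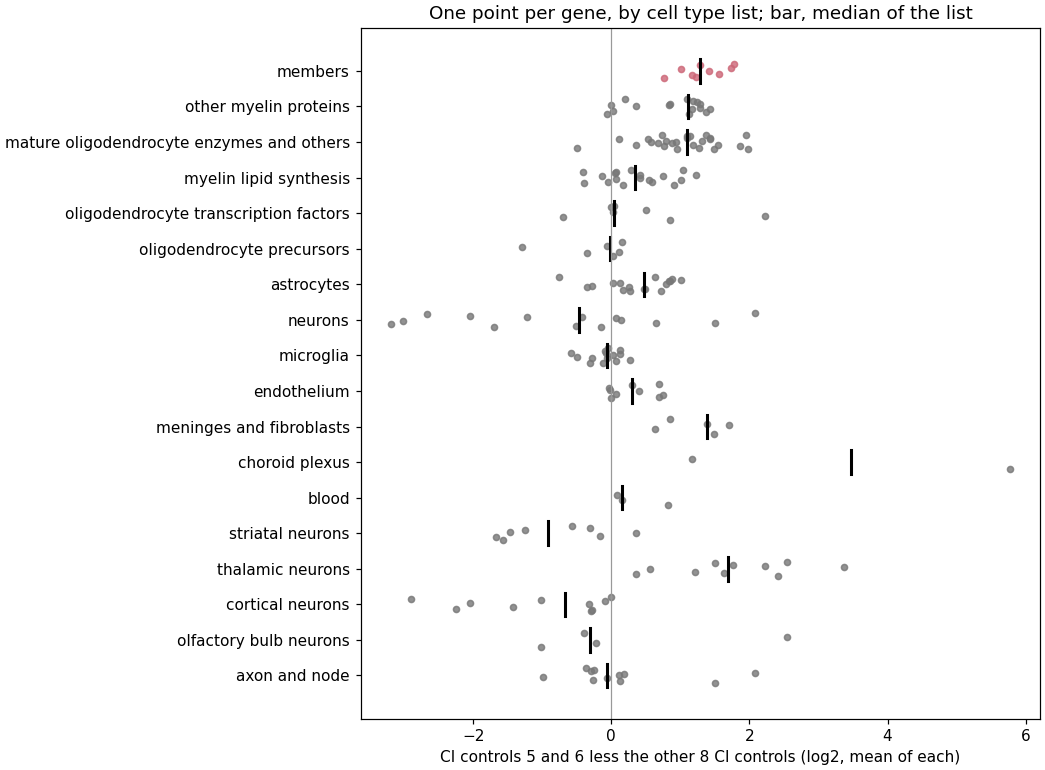
Mean log2 signal of CI controls 5 and 6 less that of the other 8 CI controls (horizontal axis), 1 point per gene in lists of cell type markers, with the list median as a bar. The members lie at 0.76 to 1.78 (median 1.29), meningeal and fibroblast genes have a median of 1.39, other myelin proteins 1.11, mature oligodendrocyte genes 1.10, thalamic genes 1.69 and cortical neuron genes -0.67.

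Across the treatments, the question was whether ethanol drinking or LPS moved the myelin genes of PFC. With limma's moderated test in each set and Benjamini-Hochberg adjustment over all probes, 0 of the 9 genes and 0 of the 16 probes reached an adjusted p of 0.05 in any set, with or without the 2 CI controls. This threshold was reached by 0% of all probes in Chronic, CI, DID and CI without controls 5 and 6, and by 0.113% in LPS. At an unadjusted p of 0.05 the counts of member genes were 0 in Chronic (4.38% of all probes), 0 in CI (5.21%), 0 in DID (3.88%) and 1 in LPS (9.58%).

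**Figure D3:**
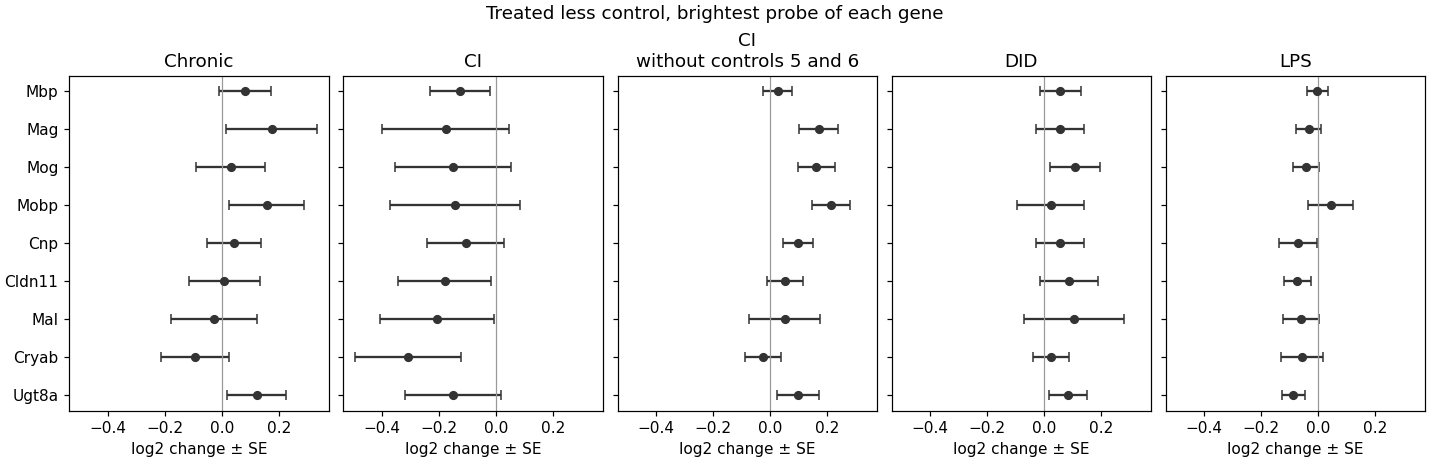
Treated less control in log2 units (horizontal axis), with its standard error from limma, for the brightest probe of each member in the 4 sets and in CI without controls 5 and 6. The CI points lie below 0 with all mice and, for 8 of the 9 genes, above 0 without the pair.

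In CI, every other day drinking, all 9 genes read lower in treated mice when all 20 were used (49.6% of all probes read higher), with a median change of -0.15 and a range from -0.31 (Cryab) to -0.11 (Cnp). Standard errors ran from 0.106 to 0.229, and the smallest adjusted p among the members was 0.865. Without controls 5 and 6, 8 of the 9 read higher (50.4% of all probes), with a median of 0.097. Of the 9 genes 3 had an unadjusted p under 0.05 (5.97% of all probes), all of them higher (2.64% of all probes). That pair was picked by its values, which were high for the members, and leaving it out by itself raises treated less control. The p-values of the fit without the pair are therefore descriptions, here and below, and not evidence of a treatment effect.

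Mobp, the basic protein of compact myelin, differed most. Its lowest, median and highest values were 9.89, 10.28 and 10.43 in the 8 remaining controls and 10.18, 10.45 and 10.59 in the 10 treated mice. Of the treated mice 9 lay above the control mean, and the groups still overlapped. The difference was 0.21 (SE 0.067, limma p = 0.0046, adjusted p = 0.760), where all 20 mice had given -0.14 (SE 0.229, adjusted p = 0.931). For Mag, the adhesion protein next to the axon, the controls ran from 11.73 over 12.19 to 12.28 and the treated mice from 12.15 over 12.27 to 12.56. All 10 treated mice were above the control mean of 12.11, and the groups overlapped. The change in Mag was 0.17 (SE 0.067, limma p = 0.0188, adjusted p = 0.80), and with all mice -0.18 (SE 0.223, adjusted p = 0.913). Mog, the surface protein, ran from 9.31 over 9.46 to 9.74 in the controls and from 9.43 over 9.67 to 9.93 in the treated mice. Its change was 0.16 (SE 0.065, limma p = 0.0213, adjusted p = 0.80) against -0.15 (SE 0.203, adjusted p = 0.915) with all mice. The second Mog probe, ILMN_2615034, gave 0.24 (SE 0.063, limma p = 0.00119, adjusted p = 0.660), the smallest p among the 16 probes. In all 6 of the 16 probes had an unadjusted p under 0.05, each of them higher, the other 2 being Mobp ILMN_1223628 (0.16, SE 0.057, limma p = 0.0127) and Mal ILMN_1224029 (0.13, SE 0.054, limma p = 0.0252). The third Mobp probe, ILMN_3024681, gave 0.083 (SE 0.047). Cnp (0.097, SE 0.053), Ugt8a (0.097, SE 0.074), Cldn11 (0.054, SE 0.063), Mal (0.051, SE 0.125) and Mbp (0.027, SE 0.051) were higher by less, and Cryab was lower by less than its error (-0.025, SE 0.064). None of these 6 had an unadjusted p under 0.05 on its brightest probe, although Mal did on its dimmer one, as given above. For Mbp the other probes lay on both sides, at 0.13 (ILMN_3081854, SE 0.086) and -0.12 (ILMN_3011353, SE 0.086), and the second Cnp probe gave 0.044 (SE 0.060). With all 20 mice the dimmer probes of these genes were all lower, from -0.081 (Mog ILMN_2615034) to -0.20 (Mobp ILMN_3024681).

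Among other oligodendrocyte genes in these 18 mice, those of mature cells mostly read higher too. Of 26 genes of mature oligodendrocytes 23 did so, with a median of 0.054. An unadjusted p under 0.05 was reached by 4 of them on the higher side, among them Trf (transferrin, an iron carrier made by oligodendrocytes, 0.26, SE 0.074) and Il33 (0.16), and by 1 on the lower side, Tppp (-0.14), a tubulin binding protein. Of 16 other myelin proteins 12 read higher, with a median of 0.045, and 0 reached that p in either direction. Lipid synthesis showed no such lean: 8 of 18 genes read higher and 1, Elovl5 (0.18), reached an unadjusted p of 0.05. Oligodendrocyte transcription factors (3 of 7 higher, among them Zfp536 at 0.11, limma p = 0.00861) and precursor genes (3 of 6 higher) were spread about 0. With all 20 mice the same lists had 1 of 26, 1 of 16, 5 of 18, 2 of 7 and 5 of 6 genes higher.

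Striatal neuron genes moved in the direction of the members in this set only when controls 5 and 6 were left out. In the comparison without controls 5 and 6 all 8 measured ones read higher, with a median of 0.479, and 5 had an unadjusted p under 0.05, led by Pde10a (0.35, SE 0.094, limma p = 0.0015, adjusted p = 0.660), Tac1 (0.79, SE 0.294) and Ppp1r1b (0.67, SE 0.285), all abundant in medium spiny neurons. Their mean signal ran from 8.86 to 11.29 in the 8 controls and from 9.71 to 11.23 in the treated mice. With all 20 mice the 8 were higher as well, by a median of 0.737, whereas all 9 members then read lower (median -0.15). Their part in the myelin difference was not tested.

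In Chronic, continuous drinking, 7 of the 9 genes read higher in treated mice (52% of all probes), with a median of 0.042. Mag (0.17, SE 0.159), Mobp (0.16, SE 0.130) and Ugt8a (0.12, SE 0.104) were highest, and Cryab (-0.093, SE 0.120) and Mal (-0.028, SE 0.150) were the 2 lower ones. The adjusted p was 0.9985 for each member by limma. Mobp ran from 9.89 over 10.12 to 10.72 in the 9 controls and from 9.83 over 10.38 to 10.77 in the 10 treated mice, so that the groups covered nearly the same range. The brighter of the other Mbp probes, ILMN_3081854, gave 0.30 (SE 0.184, limma p = 0.115), and the second Cnp probe 0.15 (SE 0.070, limma p = 0.0517). Probes disagreed in sign for Mobp, where ILMN_1223628 gave 0.014 (SE 0.124) and ILMN_3024681 gave -0.040 (SE 0.143), and for Mal, where ILMN_1224029 gave 0.008 (SE 0.103). Among other genes of the lineage, 12 of 26 of mature oligodendrocytes and 10 of 15 other myelin proteins were higher, and the one with an unadjusted p under 0.05 was Sgk2, at -0.091. All 7 striatal genes read higher (median 0.351), 2 of them, Pdyn (0.54) and Drd1 (0.34), with an unadjusted p under 0.05.

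In DID, short access in the dark, all 9 genes read higher in treated mice (51.2% of all probes), by 0.023 (Mobp) to 0.108 (Mog), with a median of 0.057. Every one of these differences was less than 1.5 times its standard error, which ran from 0.064 to 0.176. Mog ran from 9.02 over 9.36 to 9.75 in the controls and from 9.25 over 9.49 to 9.69 in the treated mice, the treated range lying within that of the controls. Of the 25 mature oligodendrocyte genes 20 read higher, with a median of 0.04 and 0 with an unadjusted p under 0.05. The dimmer member probes ran from -0.007 (Mobp ILMN_3024681, SE 0.051) to 0.103 (Mog ILMN_2615034, SE 0.076), with both dimmer Mobp probes below 0. The 15 other myelin proteins included 11 that were higher, likewise 0 at that p.

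In LPS, a week after the last injection, 8 of the 9 genes read lower in treated mice (48.7% of all probes read higher), with a median of -0.058. Only Ugt8a, the galactosylceramide transferase, had an unadjusted p under 0.05, where 4.97% of all probes were called lower. It ran from 9.52 over 9.72 to 9.91 in the controls and from 9.49 over 9.62 to 9.72 in the treated mice. The treated mice lay in the lower part of the control range or just below it, with 1 of 10 above the control mean. The change was -0.087 (SE 0.041, limma p = 0.0443, adjusted p = 0.505). Cldn11 (-0.073, SE 0.047), Cnp (-0.072, SE 0.066), Mal (-0.060, SE 0.063) and Cryab (-0.058, SE 0.074) were next, and Mobp was the one higher gene (0.043, SE 0.080). Mbp, the basic protein, stood at 14.78 ± 0.085 (SD, n = 10) in controls and 14.78 ± 0.088 (SD, n = 10) in treated mice, while its probe ILMN_3081854 gave 0.085 (SE 0.089). The other dimmer probes ran from -0.026 (Mbp ILMN_3011353) to 0.073 (Mobp ILMN_3024681), none with an unadjusted p under 0.05.

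Other lineage genes under LPS lay on both sides of 0. Gal3st1, the sulfotransferase that acts on the lipid made by Ugt8a, was at -0.11 (SE 0.036, limma p = 0.00613, adjusted p = 0.283), and Ugcg, which draws on the same ceramide pool, at -0.12 (SE 0.043, limma p = 0.0112). These were the 2 of 18 lipid synthesis genes with an unadjusted p under 0.05 (9.58% of all probes, 4.97% on the lower side). Over the 18 genes the median was -0.006, with 7 higher and 11 lower. Of 26 mature oligodendrocyte genes 13 were higher and 13 lower, with 1 and 3 (Tppp at -0.096, Stmn4 at -0.11 and Adssl1 at -0.086) past that p. Of the transcription factors, Olig1 was lower (-0.10) and Tcf7l2 higher (0.098), and the precursor genes Gpr17 (0.080) and Bmp4 (0.077) were higher, all 4 with an unadjusted p under 0.05. None of the lineage lists had a gene with an adjusted p under 0.05. In the same arrays 6 of 14 microglial genes were higher and 1 lower at an unadjusted p of 0.05 (9.58% of all probes). All 9 meningeal and fibroblast genes read higher, 2 of them, Dcn and Mgp, past the adjusted threshold. All 3 blood genes were higher at an unadjusted p of 0.05. Of 9 endothelial genes 4 were higher at that p, all 7 striatal genes read higher (median 0.21, 3 at that p), and 10 of 11 axon and node genes read lower (3 at that p). The part of these cell types in the lower myelin values was not tested.

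The treatments were compared with each other through the difference of their changes, in one limma model of all 79 arrays over 10767 probes. For each of the 6 pairs of treatments, 0 of 9 members had an unadjusted p under 0.05. All probes reached that level in 8.82% of cases for Chronic less CI, 4.93% for Chronic less DID, 7.04% for Chronic less LPS, 6.47% for CI less DID, 5.46% for CI less LPS and 2.96% for DID less LPS. Without CI controls 5 and 6 the 3 pairs that involve CI were fitted again, again with 0 of 9 members, against 8.6% of all probes for Chronic less CI, 5.24% for CI less DID and 2.15% for CI less LPS. The smallest member p was 0.0649, for Cryab in CI less DID (-0.33, SE 0.177, adjusted p = 0.807). The median difference over the members was 0.206 for Chronic less CI and -0.233 for CI less DID with all mice. Without controls 5 and 6 these medians were -0.055 and 0.014, so the direction of these contrasts turned with that pair. CI less LPS went from -0.123 to 0.169, with a smallest member p of 0.0985.

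Spread between mice of a group was wider for the members than for most genes. The median standard deviation of the 9 genes was 0.247 and 0.309 in Chronic controls and treated mice, against 0.111 and 0.128 for all probes. In DID it was 0.219 and 0.185 (all probes 0.093 and 0.091), and in LPS it was 0.121 and 0.128 (all probes 0.082 in both). In the CI controls it was 0.607 with all 10 mice and 0.179 without controls 5 and 6 (all probes 0.125 and 0.096), and in the CI treated mice it was 0.126. Mal was the most variable single gene in DID, with standard deviations of 0.427 and 0.438. Cryab was the least variable in Chronic controls (0.076, n = 8) although it reached 0.357 in the treated mice of that set. Its value in Chronic control 6 was blank, and the authors blanked outliers, so the 0.076 may leave out an extreme value.

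This spread was shared. After each value was set against its group mean, the 36 pairs of members had a median Pearson r of 0.728 over the 79 arrays, with all 36 above 0 and 31 above 0.5. Leaving out controls 5 and 6 gave a median of 0.552 over 77 arrays, with 22 pairs above 0.5. Within sets the median r was 0.733 in Chronic (19 mice), 0.54 in DID (20 mice), 0.341 in CI without the pair (18 mice) and 0.189 in LPS (20 mice), where the spread itself was smallest. In CI with the pair it was 0.905. The arrays of a set share their processing, so these r values describe the set and carry no test.

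**Figure D4:**
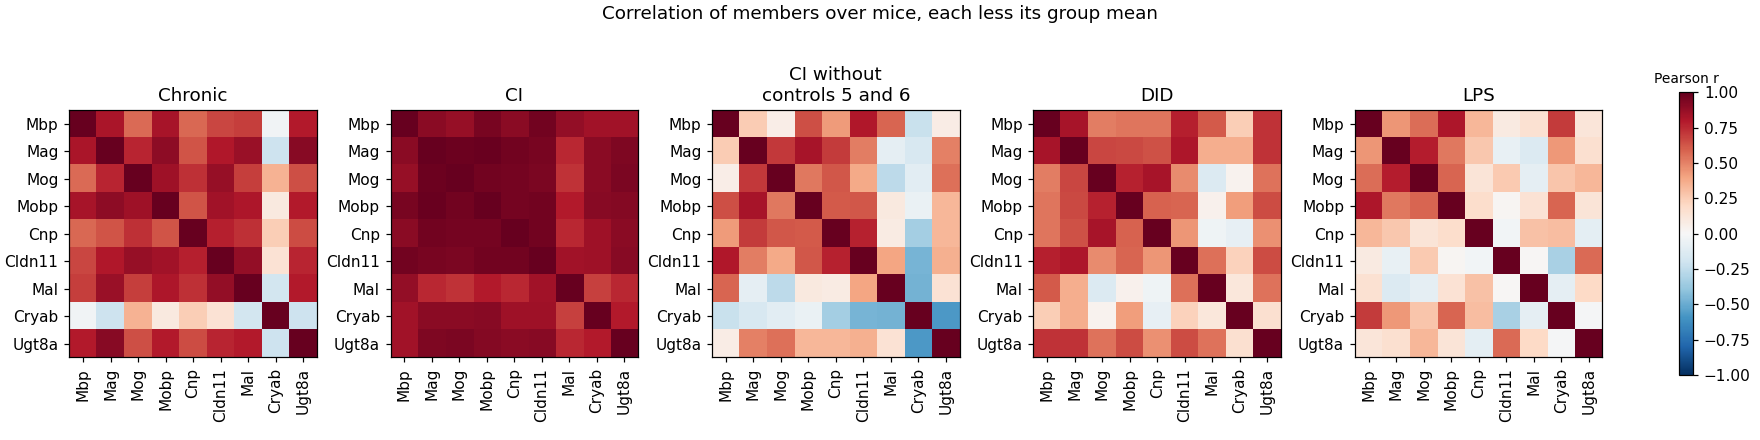
Pearson r (colour, -1 to 1) between members over the mice of each set, each value taken less its group mean. Chronic is nearly uniform apart from Cryab, with a median of 0.733, CI is uniform only while controls 5 and 6 are in, and LPS is pale, with a median of 0.189.

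The members did not take equal parts in it. Against the mean of the other 8, each scaled to its own spread, r over 77 arrays was 0.828 for Mag, 0.794 for Mobp, 0.790 for Cldn11, 0.769 for Mbp, 0.735 for Mog, 0.679 for Ugt8a, 0.618 for Cnp, 0.471 for Mal and 0.062 for Cryab. With controls 5 and 6 in, over 79 arrays, these values lay between 0.593 (Cryab) and 0.928 (Mag). Cryab, the heat shock protein, differed most between sets, at 0.023 in Chronic, 0.240 in DID, 0.450 in LPS and -0.477 in CI, or 0.881 in CI with the pair. In LPS the order was another one, with Mbp (0.80), Mobp (0.679), Mog (0.597) and Mag (0.567) above Cryab, and Cnp (0.298), Ugt8a (0.227), Mal (0.118) and Cldn11 (0.051) below it. Probes of a single gene also differed. The 2 Mog probes followed each other (r = 0.775 over the 77 arrays, 0.913 with the pair), whereas the Mbp probe ILMN_3011353 did not follow the brightest Mbp probe (-0.092, with the pair -0.123) or the other one (-0.079, with the pair -0.112), which were at 0.547 with each other (0.711 with the pair).

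The genes most like the members were looked for over the 10767 probes, by Pearson r with the mean of the 9. Over 79 arrays these were Anln (0.926), Bcas1 (0.926), Prr18 (0.912), Trf (0.903), Plekhb1 (0.893), Tmem125 (0.892), Evi2a (0.885), Il33 (0.873), Slc44a1 (0.871) and Hapln2 (0.866). Without controls 5 and 6, over 77 arrays, they were Bcas1 (0.839), Anln (0.838), Prr18 (0.825), Plekhb1 (0.762), Trf (0.748), Slc44a1 (0.714), Tmem125 (0.704), Evi2a (0.690), Tspan2 (0.665) and Litaf (0.664). Bcas1 marks myelinating oligodendrocytes, Anln encodes a septin partner, Slc44a1 a choline carrier and Tspan2 a tetraspanin of the sheath. In LPS the r of the same 10 genes was between 0.172 (Litaf) and 0.643 (Bcas1).

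Lists of other cell types were set against the members in the same way. Without controls 5 and 6 the mean of 25 mature oligodendrocyte genes followed the members with r = 0.873 (Spearman's rho 0.832), and with the pair 0.948. For 13 other myelin proteins r was 0.856 (rho 0.811), and with the pair 0.945. Lipid synthesis genes were at 0.463 (0.732 with the pair). Transcription factors were at 0.240 (0.613 with the pair) and precursor genes at 0.149 (-0.221 with the pair).

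The lists of other cells also changed with the pair. Over the 79 arrays thalamic genes were at r = 0.785, astrocyte genes at 0.592, endothelial genes at 0.468, striatal genes at 0.007, microglial genes at -0.226 and cortical neuron genes at -0.675. Over the 77 arrays without the pair the same lists were at 0.231, -0.009, 0.102, 0.504, 0.039 and 0.005. General neuronal genes were at -0.718 with the pair and at -0.309 without it. Without the pair their r within sets ran from -0.525 in Chronic to 0.418 in LPS. The sets differed behind these values. Cortical neuron genes were at 0.645 in LPS. In CI without the pair they were at -0.25, thalamic genes at 0.517, astrocyte genes at 0.456 and microglial genes at 0.401. With the pair in, the same lists in that order were at -0.938, 0.979, 0.912 and -0.532 in CI.

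Striatal neuron genes, at r = 0.504 (rho 0.534) over the 77 arrays, were at 0.497 when the 2 mice with the most extreme striatal values were left out. Within sets they were at 0.774 in Chronic (rho 0.826), 0.468 in DID and 0.224 in LPS. In CI they were at 0.543 without the pair and at -0.365 with it. Mice with much striatal signal had much myelin signal in Chronic, among controls and treated mice alike. Leaving out the 2 extreme mice gave 0.845 in Chronic, 0.38 in DID, 0.285 in CI without the pair, where thalamic genes gave 0.520, and -0.041 in LPS.

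**Figure D5:**
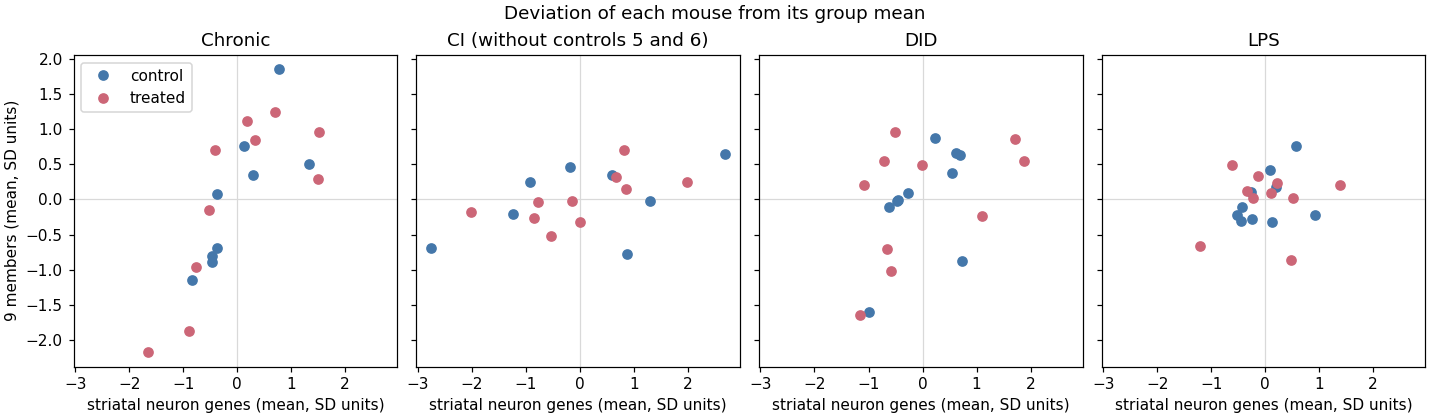
Mean of 7 striatal neuron genes (horizontal axis) against the mean of the 9 members (vertical axis) in each mouse, each gene taken less its group mean and divided by its spread over the 77 arrays, for controls (blue) and treated mice (red) of each set. Points run from lower left to upper right in Chronic (r = 0.774), and less so in CI (0.543), DID (0.468) and LPS (0.224).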

How the data were processed

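The authors deposited log2 values of 159 arrays (lumi: variance stabilisation, quantile normalisation, a filter on detection, Grubbs outliers blanked) for 79 PFC and 80 liver samples. The bead-level tables were not used, because their numbered columns could not be tied to samples. Arrays have no sequencing depth; precision here is set by how many were run. Symbols came from the platform annotation: 13181 probes had 1 symbol, 0 several and 802 none. Treated was compared with control in each PFC set with limma 3.58.1 (R 4.3.3), adjusted by Benjamini-Hochberg over all probes with values in the set; SE is limma's moderated standard error. The scripts were tested on simulated data. All member probes were fitted; the brightest over PFC stands for a gene, and the others are given where they disagree and otherwise by range. Of other listed genes, those with an adjusted p under 0.05 are named, or else up to 3 with the smallest unadjusted p under 0.05, and the 10 genes most like the members. Genes named for CI controls 5 and 6 were chosen after their values were seen. Members and lists were chosen with earlier results of these data known. Mice are the replicates; no 2 arrays held identical values. The sample titles give replicate numbers without saying that they pair mice, so the main fits did not treat them as pairs. Alternatives tried were leaving out CI controls 5 and 6 or each mouse, a replicate block, array weights, complete probes, median centring, leaving out dim probes, a trended robust variance and the mean of a gene's probes.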

Additional observations from a re-analysis of the deposited data

How the results depend on the processing

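No adjusted call appeared under any alternative: the count of member genes past an adjusted p of 0.05 was 0 in each set, and in each difference between treatments, under every setting run. Leaving out CI controls 5 and 6 turned the CI median from -0.15 to 0.097, and Mbp (0.027), Mag (0.17), Mog (0.162), Mobp (0.213), Cnp (0.097), Cldn11 (0.054), Mal (0.051) and Ugt8a (0.097) with it, and raised the count at an unadjusted p of 0.05 from 0 to 3. The medians of the differences became -0.055 (Chronic less CI), 0.014 (CI less DID) and 0.169 (CI less LPS). Array weights, which give discordant arrays less influence, did the same with all 20 mice, with a CI median of 0.053 and Mbp 0.014, Mag 0.103, Mog 0.1, Mobp 0.153, Cnp 0.053, Cldn11 0.022, Mal 0.046 and Ugt8a 0.054, and differences of -0.035 (Chronic less CI) and 0.128 (CI less LPS); they also turned Cldn11 in Chronic (-0.017) and Mbp in LPS (0.01). The mean of a gene's probes, each taken less its own mean, turned Mbp in LPS (0.019), and complete probes turned the median of Chronic less DID (0.023). The LPS count at an unadjusted p of 0.05 went from 1 to 0 with array weights and with the trended robust variance.

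Leaving out each mouse in turn gave medians of -0.003 to 0.097 in Chronic (below 0 without treated mouse 5), -0.222 to -0.03 in CI, 0.027 to 0.086 in DID and -0.065 to -0.024 in LPS. Single genes crossed 0 in Chronic (Cldn11 -0.041 to 0.082, Cnp -0.003 to 0.09, Mal -0.095 to 0.06, Mog -0.01 to 0.097), CI (Mobp -0.219 to 0.018, above 0 without control 5 or control 6), DID (Mobp -0.026 to 0.086, Cryab -0.007 to 0.054) and LPS (Mbp -0.017 to 0.015). The LPS count ranged from 0 to 1 and was 0 without any of 13 single mice. With the replicate number as a block the medians were 0.04 in Chronic, -0.149 in CI, 0.057 in DID and -0.058 in LPS, and no call changed. Same-numbered controls and treated mice correlated from -0.525 to 0.334 in Chronic, 0.056 to 0.459 in CI, -0.381 to 0.133 in DID and -0.102 to 0.171 in LPS, and with their own number best in 0, 2, 0 and 2 pairs. The medians were 0.159, 0.243, -0.112 and 0.017, and whether same-numbered mice shared a chip was not tested. The alternatives on background correction, on the detection filter and on the bead chip as a block were not run, since they need the bead-level tables. The causes of these shifts were not tested.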
